A study of Mus musculus with 8 samples.

Results

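Chemokines are small secreted or membrane-held proteins that steer the movement of leukocytes and other cells, and the chemokine receptors that read them are seven-helix receptors coupled to G proteins. Chemokines are classed as CC, CXC, CX3C or XC by the spacing of their cysteines, and many are made by macrophages, fibroblasts and endothelium after inflammatory signals. Atypical chemokine receptors take up or carry chemokines without coupling to G proteins. In tumours the system is known for drawing in monocytes and lymphocytes, and the pair Cxcl12 and Cxcr4 for guiding neural crest cells and sympathetic precursors in the embryo.

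The genes described are those whose symbols begin with Ccl, Cxcl, Ccr, Cxcr or Ackr and a digit, together with Cx3cl1, Cx3cr1, Xcl1 and Xcr1. Where several probe sets carried a symbol and no other, the brightest over the 8 arrays stood for the gene. This gave 56 of the 22180 genes measured, 34 ligands and 22 receptors. The mouse gene table lists 67 such names, and the other 11, Ccl19 and the Ccl21 genes among them, are not analysed here. All but Ccl27a had a single probe set.

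The samples were 8 primary tumours on 1 array each, grown from mouse neural crest cells transduced with N-Myc, a mixture of p53+/- and p53-/- cells, and they form 1 group with no control. About 10000 cells per mouse were injected under the skin 48 hours after infection, into nude mice, which have few T cells but keep macrophages and other myeloid cells, or into C57Bl/6 mice, and tumours were taken after about 50 days. The labels do not give the host, the p53 genotype of the cells or the animal of origin of any one tumour, so p-values cover only the spread between these samples. RNA of tumour cells and of host cells was measured together, and fewer cells of a type and less RNA per cell cannot be told apart.

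All levels are deposited log2 values, on which a difference of 1 is a doubling. The background of an array was the 95th percentile of 1435 probe sets for odorant, pheromone and bitter taste receptors, and it lay between 5.45 in tumour 3 and 5.66 in tumour 4. Array medians ran from 5.63 to 5.75. All 6 measured sympathetic neuroblast markers were called above background, and tumour 6 stood apart with a mean difference of -1.72 from their average over the tumours, so results were also computed without it. Precision is limited by how few arrays there are.

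Calls were unevenly spread over the classes of the family, without a test of the difference between classes. A gene was called above background when its level minus that of the array was above 0 with an adjusted p under 0.05 in limma, a linear model fitted over all genes. Of the 56 genes, 26 were called, or 46.4%, against 57.3% of all genes tested. By class these were 13 of 19 CC ligands, 4 of 13 CXC ligands, 1 of 2 other ligands, 1 of 10 CC receptors, 3 of 6 CXC receptors, 1 of 2 other receptors and 3 of 4 atypical receptors. Another 24 lay below background by the same test and 6 on neither side. The median difference from background was 0.42 for the ligands and -0.10 for the receptors, against 0.68 for all genes. In single tumours, 22 of the genes exceeded the background in all 8, 13 in some and 21 in none.

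**Figure D1:**
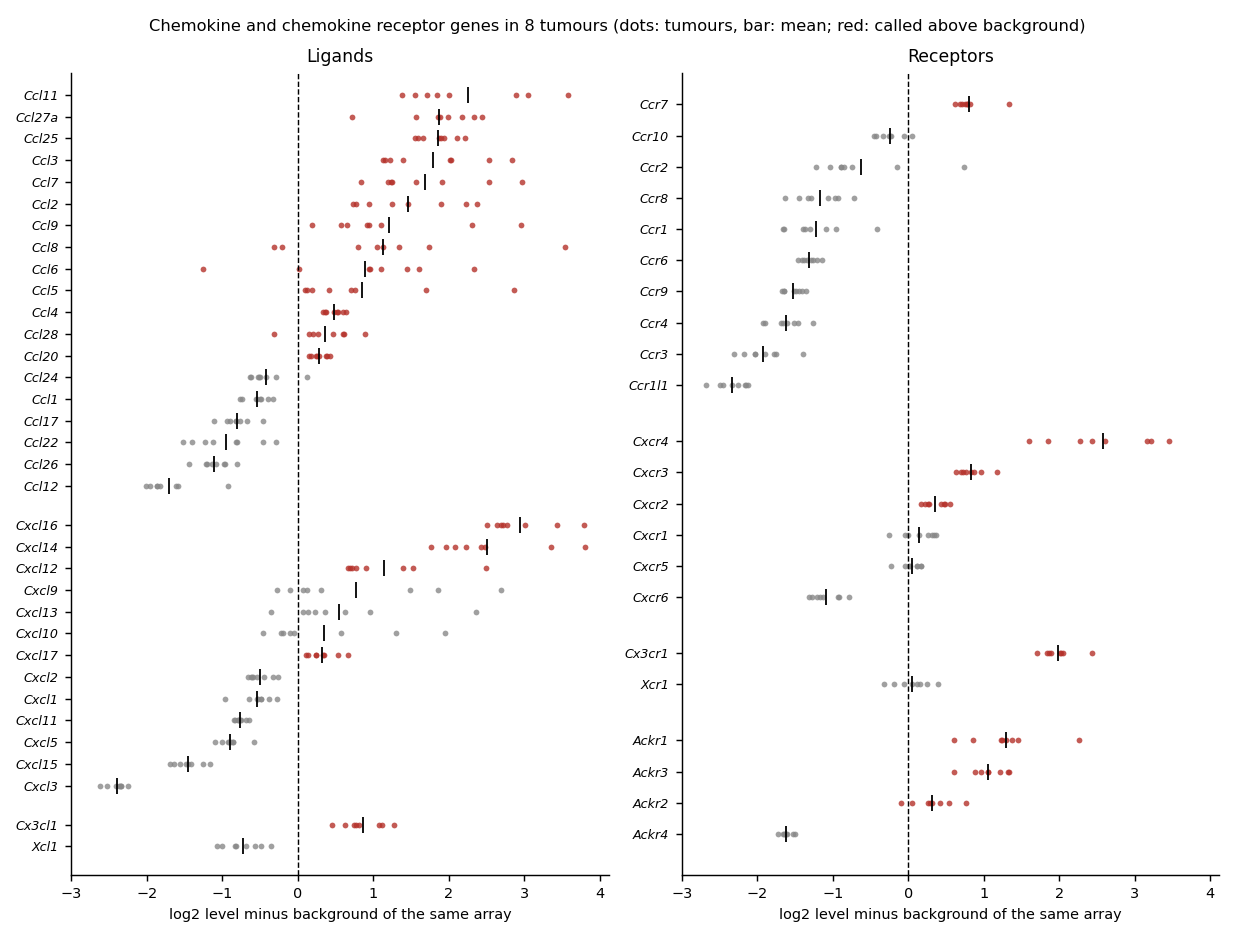
Levels of the 56 chemokine and chemokine receptor genes minus the background of the same array (log2), with 1 dot per tumour (n = 8), a bar for the mean, red for genes called above background, and genes grouped by class. The CC ligands span the widest range between tumours, and most CC receptors lie below 0, the background.

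Among the CC ligands, the monocyte attractants Ccl2, Ccl7 and Ccl8 were all above background and differed widely between tumours. With background at the 99th percentile, Ccl2 (limma adjusted p = 0.0653) and Ccl8 (0.771) were no longer called. Ccl8 was at 5.42, 6.43, 8.99, 5.35, 6.98, 6.58, 6.70 and 7.31 in tumours 1 to 8. It was highest in tumour 3 by a wide margin, lay below the array background in tumours 1 and 4, and spanned 12.5-fold. Its level averaged 1.13 above background (SE 0.38, n = 8, limma adjusted p = 0.0162). Ccl7 was at 6.83, 6.87, 8.42, 6.49, 7.54, 8.07, 7.14 and 6.81, and Ccl2 at 6.58, 6.40, 7.82, 6.39, 7.53, 7.77, 7.04 and 6.82. Both were high in tumours 3, 5 and 6 and lowest in tumour 4, and both exceeded the background in every tumour. Their differences from background were 1.68 (SE 0.23, limma adjusted p = 3.17e-05) for Ccl7 and 1.46 (SE 0.20, limma adjusted p = 2.85e-05) for Ccl2. Ccl12, a further ligand of Ccr2, stayed below background in every tumour (3.88 ± 0.30, SD, n = 8).

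The CC ligands Ccl5, Ccl9 and Ccl6 were also high in tumour 3. Ccl5, which attracts T cells and monocytes, was at 5.72, 6.39, 8.32, 6.08, 5.82, 7.23, 6.28 and 5.70 in tumours 1 to 8. Tumours 3 and 6 stood above the others, and without tumour 3 the remaining tumours averaged 6.17 ± 0.54 (SD). Ccl5 averaged 0.85 above background (SE 0.30, limma adjusted p = 0.0215), and without tumour 6 the call was lost at 0.73 (limma adjusted p = 0.0589). Ccl9, a rodent chemokine made by macrophages, was at 6.57, 6.20, 8.40, 5.85, 6.55, 7.85, 6.23 and 6.67. Its highest values again fell in tumours 3 and 6 and its lowest in tumour 4, a span of 5.88-fold. It was 1.20 above background (SE 0.29, limma adjusted p = 0.00286). Ccl6, the near relative of Ccl9, was at 6.58, 5.64, 7.79, 4.40, 7.08, 7.15, 6.67 and 6.52. Tumour 4 lay more than 1 log2 unit below its background and tumour 2 barely above its own, and the other 6 were clearly higher. Ccl6 averaged 0.89 above background (SE 0.34, limma adjusted p = 0.0301), and leaving out tumour 1, 3, 5, 6, 7 or 8 lost the call, with differences of 0.69 to 0.88 and adjusted p between 0.0568 and 0.0775.

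Ccl3, an attractant of monocytes and neutrophils, was at 6.75, 7.64, 8.28, 6.88, 7.66, 8.07, 6.97 and 6.73 in tumours 1 to 8. Tumours 2, 3, 5 and 6 were the higher ones, and all 8 exceeded background, by 1.79 on average (SE 0.20, limma adjusted p = 6.18e-06). Ccl4, its chromosomal neighbour, varied little, between 5.94 and 6.22, and was 0.48 above background (limma adjusted p = 5.74e-06).

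Of the eotaxins, which attract eosinophils through Ccr3, only Ccl11 was called. It was at 7.64, 7.35, 8.49, 7.21, 7.48, 9.12, 8.46 and 6.96 in tumours 1 to 8. Tumours 6, 3 and 7 formed the upper part, and tumour 8 was lowest, a span of 4.48-fold. The mean was 2.25 above background (SE 0.25, limma adjusted p = 8.12e-06). Ccl24 averaged 5.17 ± 0.26 and Ccl26 averaged 4.48 ± 0.18, both below background (SD, n = 8).

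Ccl27a, Ccl25, Ccl28 and Ccl20, ligands associated with epithelium and thymus, were above background. Of these only Ccl28 was highest in tumour 3. Ccl27a, an attractant of skin-homing T cells through Ccr10, was at 7.80, 7.97, 7.44, 6.38, 7.52, 7.11, 8.01 and 7.43. Tumour 4 stood below all the others, and the second probe set of Ccl27a also had its lowest value there, 4.77. Ccl27a was 1.87 above background (limma adjusted p = 3.64e-07). The second probe set averaged only 5.66, and with the mean of both Ccl27a was 0.97 above background and still called. Ccl25, which acts on thymocytes and gut-homing T cells through Ccr9, was at 7.57, 7.19, 7.56, 7.26, 7.50, 7.75, 7.48 and 7.23 in tumours 1 to 8. These lay close together, with tumour 6 highest and tumour 2 lowest, and the mean was 1.85 above background (limma adjusted p = 4.83e-10). Ccl28, another ligand of Ccr10, ran from 5.34 in tumour 4 to 6.34 in tumour 3. Ccl20, the ligand of Ccr6, ran from 5.69 in tumour 3 to 6.06 in tumour 5. Both were called, at 0.36 (limma adjusted p = 0.00987) for Ccl28 and 0.28 (limma adjusted p = 0.000284) for Ccl20. Ccl17 and Ccl22, ligands of Ccr4, were below background at 4.78 ± 0.16 and 4.63 ± 0.41. Ccl1, a ligand of Ccr8, was below it at 5.05 ± 0.20 (SD, n = 8).

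Most of these genes lie in 2 clusters on chromosome 11. In gene order the first is Ccl2, Ccl7, Ccl11, Ccl12, Ccl8 and Ccl1, of which 4 of 6 were called. The second is Ccl5, Ccl9, Ccl6, Ccl3 and Ccl4, of which 5 of 5 were called, against 57.3% of all genes tested. Tumour 3 had the highest level of 7 of the 9 called genes, and tumour 4 the lowest of 5. The exceptions at the top were Ccl11, highest in tumour 6, and Ccl4, highest in tumour 8. Uncalled members lie between called ones: Ccl12 was at most 4.52 in any tumour although its neighbours Ccl11 and Ccl8 reached 9.12 and 8.99.

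**Figure D2:**
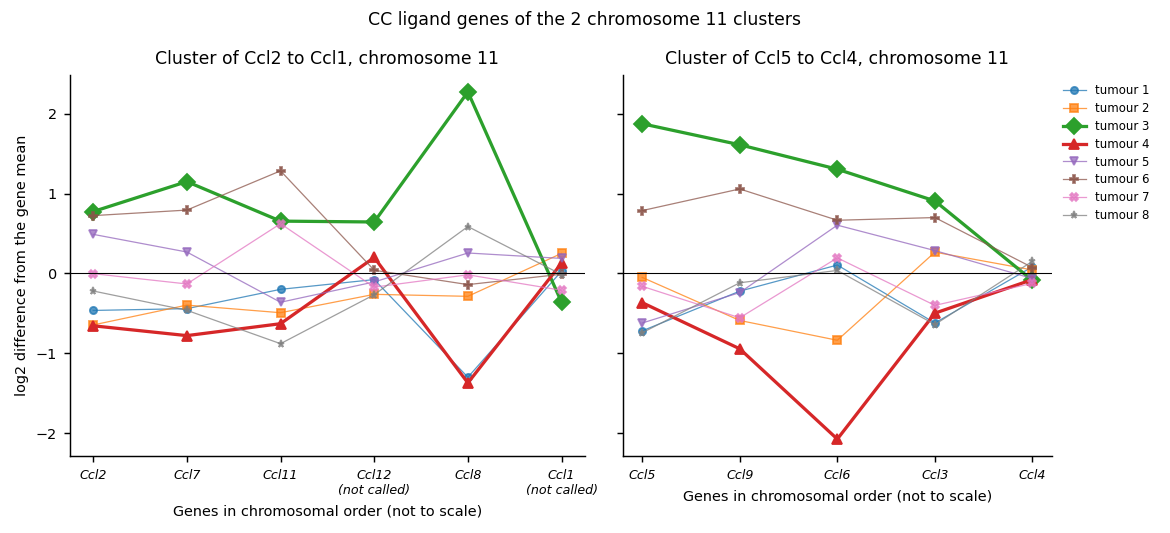
Difference of each tumour's level from the gene's own mean (log2, vertical axis) for the CC ligand genes of the 2 chromosome 11 clusters, in gene order, with 1 line per tumour and heavier lines for tumours 3 and 4. Tumour 3 is at the top for 7 of the 9 called genes and tumour 4 at the bottom for 5 of them.

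Of the CXC ligands, Cxcl12, Cxcl14, Cxcl16 and Cxcl17 were called and those that attract neutrophils were not. Cxcl16, a membrane-held ligand made by macrophages and read by Cxcr6, was at 8.14, 8.27, 9.24, 8.37, 8.40, 8.97, 8.58 and 8.27 in tumours 1 to 8. Tumours 3 and 6 were the highest, with a span of 2.15-fold. Cxcl16 was 2.94 above background (SE 0.14, limma adjusted p = 4.09e-10). Cxcl14, a chemokine of epithelium and stroma, was at 7.71, 7.40, 8.81, 8.13, 7.86, 7.96, 9.38 and 7.54. Tumours 7 and 3 stood above the rest, whose levels did not exceed 8.13, and the mean was 2.51 above background (SE 0.22, limma adjusted p = 7.41e-07). Cxcl12, the stromal ligand of Cxcr4 and Ackr3, was at 6.32, 6.34, 7.95, 6.42, 6.54, 7.06, 6.97 and 6.24. It was highest in tumour 3, then in tumours 6 and 7, and the other 5 lay between 6.24 and 6.54. Cxcl12 was 1.14 above background (SE 0.20, limma adjusted p = 0.000195), but was not called with background at the 99th percentile (0.14 above, limma adjusted p = 0.534). Cxcl17, a chemokine of mucosal epithelium, was called at 5.91 ± 0.22 (SD, n = 8; limma adjusted p = 0.000822).

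Cxcl1, Cxcl2, Cxcl3, Cxcl5 and Cxcl15, which attract neutrophils through Cxcr2 and form a cluster on chromosome 5, were below background in all 8 tumours. Their means ran from 3.19 ± 0.13 for Cxcl3 to 5.08 ± 0.20 for Cxcl2 (SD, n = 8), and all 5 were below background by limma. Of the 8 neutrophil markers measured 1 was called, Csf3r, against 57.3% of all genes tested. Cxcl1, Cxcl2 and Cxcl3 are shown from base -110 to base -41 before their start, because the same kappaB letters recur there in genes that stayed at background. The sequences are from RefSeq, build GRCm38.p6, plus strand, with matches in capitals:
Cxcl1, chr5:90891135-90891204: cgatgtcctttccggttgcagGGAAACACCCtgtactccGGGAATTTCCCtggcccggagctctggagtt
Cxcl2, chr5:90903789-90903858: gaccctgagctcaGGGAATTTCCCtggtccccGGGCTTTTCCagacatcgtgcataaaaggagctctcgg
Cxcl3, chr5:90785991-90786060: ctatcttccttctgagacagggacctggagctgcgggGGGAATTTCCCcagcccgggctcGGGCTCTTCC
Capitals mark GGG, any 3 letters and TTCC on either strand (kappaB), a form of the site that NF-kappaB proteins are known to bind. Each stretch holds 3 matches, of which a pair on opposite strands overlap and share their inner letters. Among the 42 genes of the family with a promoter in the table (250 bases before to 50 after the start), 9 held these letters (21.4%), against 6.31% of all 27025 genes with one. A match is a description of the letters and not a measured site.

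The ligands of Cxcr3, which interferon-gamma is known to induce and which attract T and NK cells, were highest in different tumours. Cxcl9 was at 5.35, 5.93, 7.30, 5.73, 5.76, 7.02, 8.27 and 5.47 in tumours 1 to 8. Tumour 7 was highest, followed by tumours 3 and 6, and the other 5 lay near background. Its mean of 6.35 ± 1.05 (SD, n = 8) was 0.77 above background and was not called (SE 0.34, limma adjusted p = 0.0549). It was called without tumour 1 (limma adjusted p = 0.0375) or 8 (0.0475), by limma without trend and robust prior (0.043), among genes above the median level only (0.0461) and with background at the 90th percentile (1.38 above, 0.00389) or the median (2.89 above, 1.03e-05). Cxcl10 was at 5.41, 5.44, 7.39, 6.97, 5.54, 6.11, 5.53 and 5.12. Here tumours 3 and 4 were high, tumour 6 lay above its background, and tumour 7, the highest for Cxcl9, did not. Cxcl10 was 0.35 above background and was not called (SE 0.27, limma adjusted p = 0.234). It was called with background at the 90th percentile (0.96 above, limma adjusted p = 0.00684) or the median (2.47 above, 4.61e-06). Cxcl11, which the RefSeq gene table lists as a transcribed pseudogene in the mouse, was below background throughout, at 4.82 ± 0.10 (SD, n = 8).

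The genes of Cxcl9 and Cxcl10 lie side by side on chromosome 5. Their promoter windows are shown as a description, and a link of the letters to the levels was not tested. Both are from RefSeq, build GRCm38.p6, minus strand, and are given in the direction of the gene, 5′ to 3′:
Cxcl10, chr5:92348840-92349139: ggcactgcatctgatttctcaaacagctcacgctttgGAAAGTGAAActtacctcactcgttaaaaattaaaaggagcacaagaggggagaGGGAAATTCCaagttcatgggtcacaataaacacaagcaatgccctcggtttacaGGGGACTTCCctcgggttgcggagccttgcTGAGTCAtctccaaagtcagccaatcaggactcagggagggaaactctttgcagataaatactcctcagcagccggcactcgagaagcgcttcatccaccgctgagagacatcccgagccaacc
Cxcl9, chr5:92328030-92328329: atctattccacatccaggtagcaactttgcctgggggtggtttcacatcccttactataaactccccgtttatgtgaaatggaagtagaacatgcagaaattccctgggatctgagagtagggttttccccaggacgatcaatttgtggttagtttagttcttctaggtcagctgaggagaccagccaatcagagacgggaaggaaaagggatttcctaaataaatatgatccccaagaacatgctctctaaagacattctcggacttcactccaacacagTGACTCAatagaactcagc
Capitals mark 4 motifs searched on both strands: GAAA, any 2 letters and GAAA (the interferon-stimulated response element, ISRE), TTC, any 3 letters and GAA (the interferon-gamma activation site, GAS), the kappaB letters above, and TGA, any letter and TCA (AP-1). Counted from the start as base 1, with negative numbers before it, the Cxcl10 window held an ISRE match at -213, kappaB matches at -159 and -104 and an AP-1 match at -74, none overlapping. The Cxcl9 window held an AP-1 match at 32 and no other. The ISRE letters were in 2 of the 42 family genes with a window (4.76%), Cxcl10 and Cxcl14, against 3.99% of all genes. The GAS letters were in 4 (9.52%) against 9.55%, and the AP-1 letters in 8 (19.0%) against 8.97%.

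**Figure D3:**
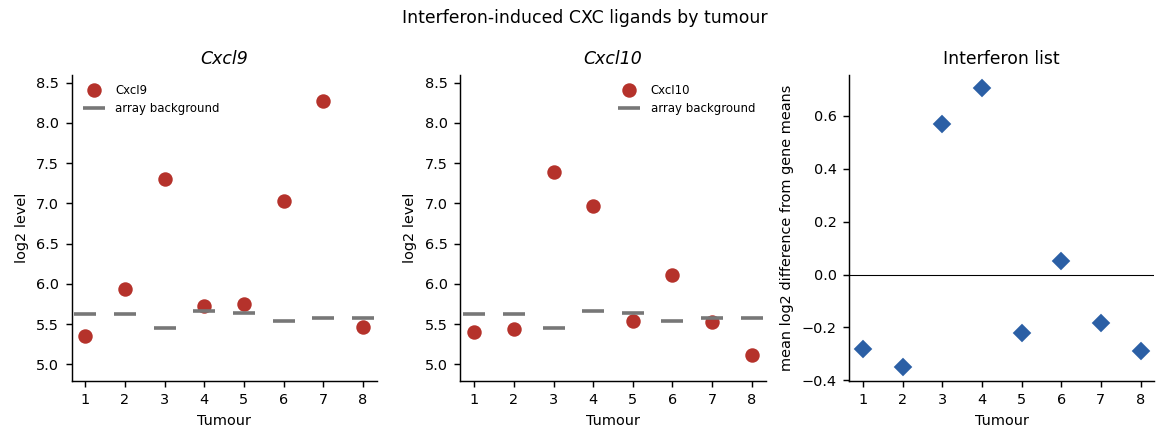
Levels (log2) of Cxcl9 and Cxcl10 in each of the 8 tumours, with the array background as a tick, and the interferon gene list as its deviation from its mean over the tumours. Cxcl9 is highest in tumour 7 (8.27), Cxcl10 in tumour 3 (7.39), and the interferon list in tumours 4 and 3.

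Of 12 measured interferon-response genes 8 were called, against 57.3% of all genes tested. The mean level of these 8 ran from 5.93 in tumour 2 to 6.99 in tumour 4. The list stood 0.70 above its own mean in tumour 4 and 0.57 above it in tumour 3, the tumours in which Cxcl10 was high, and 0.18 below it in tumour 7 (deviation -0.18). Its part in the level of either chemokine was not tested, since neither gene was called. Ifng, which encodes interferon-gamma, averaged 5.29 ± 0.12 (SD, n = 8) and was not called. Of the T cell markers 1 of 10 measured was called, Cd4, and of the NK cell markers 2 of 8.

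Cxcl13, the B cell attractant read by Cxcr5, was at 5.69, 5.99, 7.81, 5.31, 5.86, 6.16, 5.71 and 6.53 in tumours 1 to 8. Tumour 3 stood apart, and without it the other tumours averaged 5.89 ± 0.39 (SD). Cxcl13 was 0.55 above background and was not called (limma adjusted p = 0.0677). It was called without tumour 4 (limma adjusted p = 0.0353) and against the lower backgrounds at the 90th percentile (1.16 above, limma adjusted p = 0.00197) and the median of the taste and odorant receptor probe sets (2.67 above, limma adjusted p = 1.18e-06). None of the 5 B cell markers measured was called, and all 5 were below background by limma. Cx3cl1, the membrane-held ligand of neurons and endothelium, ran from 6.07 to 6.94 with a median of 6.41 and was highest in tumour 4. It was 0.86 above background (limma adjusted p = 2.08e-06). Xcl1, a lymphocyte product that attracts dendritic cells, was below background at 4.86 ± 0.24 (SD, n = 8).

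Of the 22 receptors 8 were called above background, against 57.3% of all genes tested, and 3 of the 8 were atypical receptors. Cxcr4, the receptor of Cxcl12 on neural crest cells, endothelium and leukocytes, was at 7.23, 8.24, 8.62, 8.87, 7.49, 7.97, 7.85 and 9.03 in tumours 1 to 8. Tumours 8, 4 and 3 were the highest and tumours 1 and 5 the lowest, a span of 3.50-fold. Cxcr4 was 2.57 above background (SE 0.21, limma adjusted p = 3.18e-07). Cx3cr1, the receptor of Cx3cl1 on macrophages and monocytes, was at 7.66, 7.50, 7.35, 8.09, 7.47, 7.25, 7.63 and 7.58. Tumour 4 was highest and the others lay within 0.5 of each other, with a mean 1.98 above background (SE 0.08, limma adjusted p = 1.51e-10). Cxcr3, the receptor of Cxcl9 and Cxcl10, ran from 6.22 to 6.81, and Cxcr2 from 5.72 to 6.22. Both were called, with differences of 0.83 (limma adjusted p = 1.87e-07) for Cxcr3 and 0.36 (limma adjusted p = 0.000118) for Cxcr2. Cxcr1 at 5.73 ± 0.24, Cxcr5 at 5.63 ± 0.13 and Xcr1, the dendritic cell receptor of Xcl1, at 5.64 ± 0.29 lay on neither side of background, and Cxcr6 at 4.50 ± 0.16 lay below it (SD, n = 8). Cxcr1 was called without tumour 7 (limma adjusted p = 0.021). With background at the 90th percentile, Cxcr1 (0.75 above, limma adjusted p = 5.34e-07), Cxcr5 (0.65 above, 2.17e-07) and Xcr1 (0.66 above, 2.57e-06) were called.

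Of the CC receptors only Ccr7, the lymph node homing receptor, was called, at 0.81 above background (limma adjusted p = 9.2e-07), with a range of 6.25 to 6.79. Ccr2, the monocyte receptor of Ccl2 and Ccl7, was at 4.59, 4.78, 6.20, 4.44, 4.89, 5.40, 4.69 and 4.69 in tumours 1 to 8. It exceeded the background only in tumour 3, and its mean was below background (difference -0.63, limma adjusted p = 0.0123). Ccr1 was also highest in tumour 3, at 5.04, but remained below the background there. Ccr10 averaged 5.35 ± 0.15, and the means of Ccr3, Ccr4, Ccr6, Ccr8, Ccr9 and Ccr1l1 ran from 3.26 to 4.42. A cluster on chromosome 9 that holds Ccr9, Cxcr6, Xcr1, Ccr1, Ccr1l1, Ccr3 and Ccr2 had 0 of 7 measured genes called above background by limma, with or without its trend and robust prior. Of the 7, all but Xcr1 were below background (limma adjusted p from 2.25e-12 for Ccr1l1 to 0.0123 for Ccr2).

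Atypical receptors were called in 3 of 4 cases. Ackr1, which carries chemokines across venular endothelium and is also made by red cell precursors, was at 6.92, 6.88, 6.83, 6.89, 6.24, 6.40, 7.03 and 7.84 in tumours 1 to 8. Tumour 8 was highest and tumours 5 and 6 were lowest, a span of 3.03-fold, and the mean was 1.29 above background (limma adjusted p = 3.62e-06). Ackr3, which takes up Cxcl12, ran from 6.24 to 6.997 and was 1.06 above background (limma adjusted p = 1.35e-07). Ackr2, a scavenger of inflammatory CC ligands, ran from 5.54 to 6.43 and was 0.32 above background (limma adjusted p = 0.00452). Ackr4 was below background at 3.97 ± 0.06 (SD, n = 8).

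The spread between tumours was set against probe sets of the odorant, pheromone and bitter taste receptors, of which 99% had an SD under 0.41. Among all genes called above background, 1854 of 12699 exceeded this SD (14.6%), and among the called family members 13 of 26 did (50%). These were 11 ligands and the receptors Cxcr4 and Ackr1. The median SD was 0.43 for the 26 called members and 0.23 for all called genes. No tumour was measured on more than 1 array, so the technical part of an SD is not known.

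Tumour 3, chosen for description after its values were seen, held many of the highest levels. Of all called genes 13.7% were highest in tumour 3, and of the 26 called family members 11 were. Of the called genes that exceeded the SD of 0.41, 12.7% were highest in tumour 3, against 8 of the 13 family members: Ccl2, Ccl3, Ccl5, Ccl6, Ccl7, Ccl8, Ccl9 and Cxcl12. At the other end, 11.2% of those genes were lowest in tumour 4, against 6 of the 13: Ccl2, Ccl6, Ccl7, Ccl8, Ccl9 and Ccl27a. Tumour 3 also had the lowest background and the lowest array median. With arrays centred on their medians, 9 of 14 such members were highest in tumour 3.

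**Figure D4:**
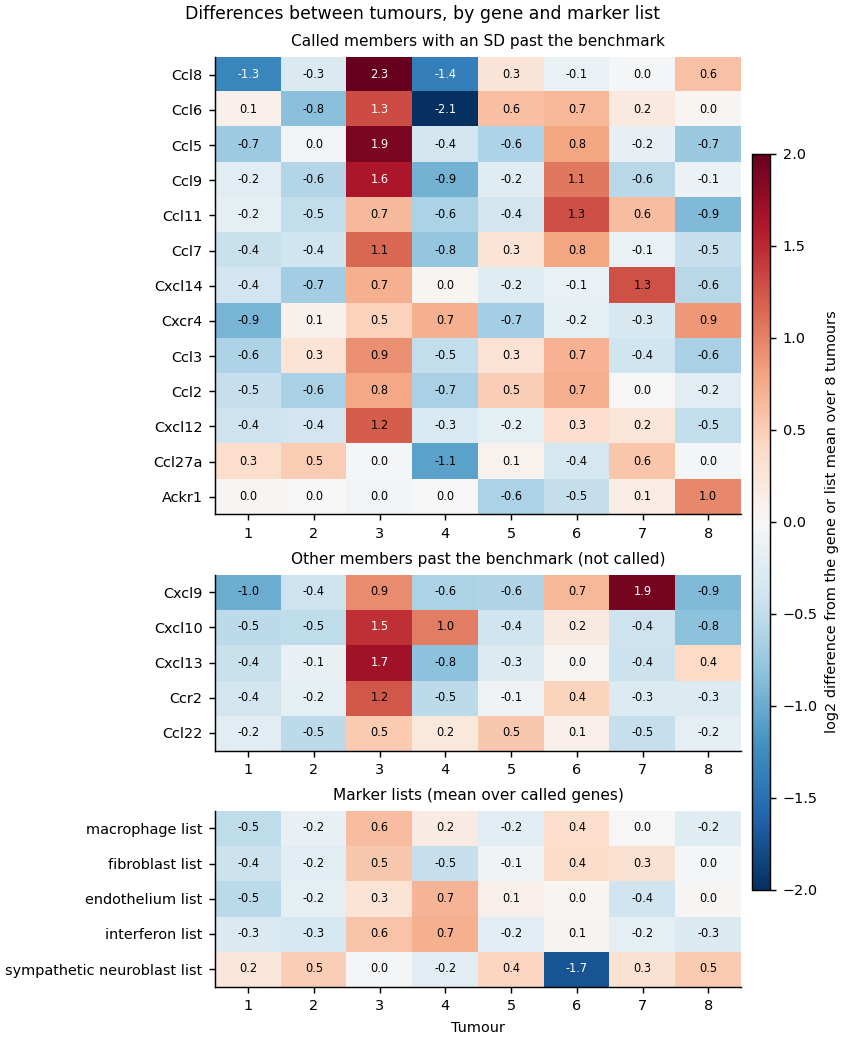
Difference from the mean over the 8 tumours (log2, colour scale and printed values, tumours in columns) for the 13 called members with an SD above 0.41, the 5 such members that were not called, and 5 marker lists. Tumour 3 is highest for 8 of the 13 and tumour 4 lowest for 6.

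Markers of several cell types differed between the same tumours. The counts called are to be read beside the 57.3% of all genes tested that were called. Of the 17 macrophage markers measured 15 were called, and Cd163 and Itgam were not. Of the 15, 13 were highest in tumour 3, and their mean level ran from 7.79 in tumour 1 to 8.92 in tumour 3. In tumour 4, where 6 of the variable members were lowest, the macrophage list stood 0.16 above its own mean. Monocyte markers were also highest in tumour 3: Plac8, the only 1 of 4 called, reached 7.64 there, and Ly6c2, not called over the tumours, was at 8.66 in tumour 3 and at most 5.80 elsewhere. Of the 13 fibroblast markers 11 were called, with a mean level from 8.15 in tumour 4 to 9.15 in tumour 3. Only 5 of the 11 were highest in tumour 3, and Acta2 was lowest there, at 9.62. Skeletal muscle markers, of which 4 of 5 measured were called, stood 0.95 above their mean in tumour 3 and 1.47 above it in tumour 6, with -1.09 in tumour 4. All 4 measured markers of Schwann cells and glia were called and stood 2.23 above their mean in tumour 4 and 1.69 above it in tumour 6, with -0.90 in tumour 3. The part of these cell types in the chemokine levels was not tested beyond the relations that follow.

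Of 31 relations chosen between ligands and receptors or between members and marker lists, 12 could be computed, because a gene was not called or not measured in the other 19. By Pearson's r 2 passed the threshold, with exact permutation of the 40320 pairings, two-sided, adjusted over the 12. Cxcl16 followed the macrophage list (r = 0.92, exact p = 0.00117, adjusted 0.014; rho = 0.83, exact p = 0.0154, adjusted 0.0923; n = 8). Without tumours 3 and 6 the r was 0.70 (exact p = 0.124), and the call was lost without tumour 1 (adjusted exact p = 0.0698), 3 (0.169) or 6 (0.0774). Cxcl12 followed the fibroblast list (r = 0.86, exact p = 0.00305, adjusted 0.0183; rho = 0.69, exact p = 0.0694, adjusted 0.278). Without tumours 3 and 6 the r was 0.72 (exact p = 0.112), and the call was lost without tumour 1 (adjusted exact p = 0.0698), 3 (0.205), 5 (0.0524), 6 (0.0774) or 7 (0.0774). With 1 tumour left out, r stayed between 0.85 and 0.98 for Cxcl16 and between 0.83 and 0.90 for Cxcl12.

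**Figure D5:**
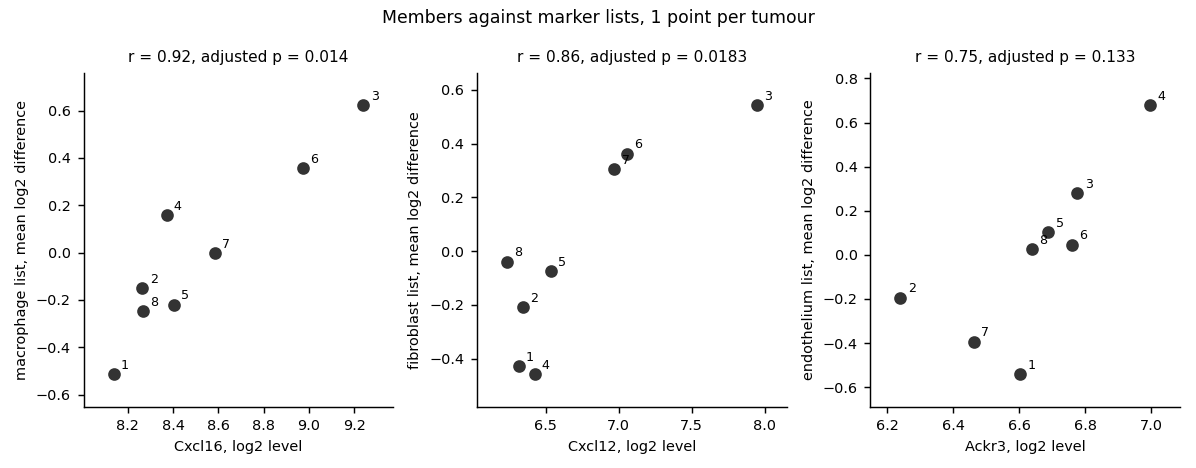
Called macrophage, fibroblast and endothelium markers as their mean difference (log2, vertical axes) from their average over the tumours, against the levels (log2, horizontal axes) of Cxcl16, Cxcl12 and Ackr3, 1 numbered point per tumour (n = 8). Tumours 3 and 6 lie at the upper right for Cxcl16, and tumour 3 does for Cxcl12.

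Ackr3 and the endothelium list had r = 0.75 (exact p = 0.0333, adjusted 0.133) and rho = 0.88 (exact p = 0.00724, adjusted 0.0869), and the r was 0.79 (exact p = 0.0556) without tumours 2 and 4. It was past the threshold only when tumour 2 was left out (adjusted exact p = 0.0365). Cxcr4 and the endothelium list had r = 0.67 (adjusted exact p = 0.203), and Cxcr4 and the sympathetic neuroblast list r = 0.01 (adjusted exact p = 0.981). The pairs of ligand and receptor did not pass: Cxcl12 with Cxcr4 had r = 0.10 (adjusted exact p = 0.916), Cxcl12 with Ackr3 had r = 0.24 (adjusted exact p = 0.722) and Cx3cl1 with Cx3cr1 had r = 0.49 (adjusted exact p = 0.429). That last r was -0.18 without tumour 4, -0.56 without tumours 3 and 4, and 0.77 without tumour 6. Ccl2 and the macrophage list had r = 0.60 (adjusted exact p = 0.275), which was -0.13 without tumours 3 and 6. Cx3cr1 had r = -0.29 with the macrophage list (adjusted exact p = 0.722) and r = -0.81 without tumour 4 (adjusted exact p = 0.123). The remaining pairs were Cxcl12 with the endothelium list, at r = 0.20 (adjusted exact p = 0.723), and Cx3cl1 with the sympathetic neuroblast list, at r = -0.37 (adjusted exact p = 0.67).

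Other genes of chemokine biology were taken from lists, whose counts are to be read beside the 57.3% of all genes tested that were called. Of 7 measured ligands and receptors outside the symbol rule, 4 were called. Pf4, also known as Cxcl4 and made by platelets and macrophages, was at 6.18, 6.80, 8.16, 6.29, 7.46, 7.53, 6.57 and 6.48 in tumours 1 to 8, again highest in tumour 3. Mif, a cytokine that also acts on Cxcr4, was at 11.9 ± 0.15 (SD, n = 8), and Cmklr1 and Mmp12 were called too. Of 23 measured genes of receptor signalling 19 were called, and the 3 with the largest SD were Rgs16, which ran from 5.68 to 7.53, Grk3, from 5.81 to 7.33, and Rgs10, from 6.81 to 8.36. Of 22 measured inducers of chemokine genes and their receptors 15 were called, led in SD by Tnfrsf1b, Tnfrsf1a and Nfkb2. Of the cytokines, Csf1 and Csf3 were called, and Il1a, Il1b, Il6, Tnf, Ifng and Csf2 were not. In tumour 3, Tnf was at 6.37 and Il1b at 5.97, above the background of 5.45 there, and Il6 was below it at 3.80. Il1b was highest in tumour 5, at 6.12. The receptor genes Ifngr1, Ifngr2, Tnfrsf1a and Tnfrsf1b were called, and Il1r1 was not.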

How the data were processed

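RNA of 8 tumours was measured on Affymetrix arrays, 1 array each. The deposited values span 2.07 to 13.61, taken from that range to be on a log2 scale. The authors used RMA, per the submitters' processing notes, and Partek 6.5, in roles the notes leave unstated. The sources used here do not give the build or annotation behind the probe sets. Of 41345 probe sets, 23521 have 1 gene symbol, 1814 several and 16010 none, and genes were read from the probe set with the highest mean among those with 1 symbol. Arrays carry no read depth.

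Levels minus array background were tested over all 22180 genes with limma 3.58.1 in R 4.3.3 (trend and robust prior), with Benjamini-Hochberg adjustment. On simulated data, 95% of genes set 0.5 above background were called and 99% of genes set 1 above it. These raised genes were picked at random from all genes and kept their own SDs. Called family members were more variable (median SD 0.43 against 0.23 for all called genes), so these shares need not hold for them. Of genes set at -0.25 from background, 0.0364% were called. No gene was set at background itself, so the error rate there was not measured. Noise was drawn independently for each gene. Relations used exact permutation in scipy 1.17.1. Promoters are RefSeq windows (GRCm38.p6). Family genes at most 4 places apart in the order of protein-coding genes formed a cluster. Alternatives were another probe set summary, other array scaling, other backgrounds, limma without trend and robust prior, a filter on low values and leaving out each tumour.

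Every member is named within its class. Full values are given for the 10 called members of largest SD, the 10 of highest mean and genes in a relation past the threshold. Values of Cxcl9, Cxcl10, Cxcl13, Ccr2, Ackr1 and Pf4 were given in full after they were seen. The members, lists and relations were chosen with earlier results of these data known.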

Additional observations from a re-analysis of the deposited data

Results flagged for a closer look

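Among the 56 genes, 2 had a tumour far from the other 7 by Dixon's test. Chance alone flags about 1 of 20 groups, so 2 of 56 is no more than chance gives. Ccr7 was at 6.79 in tumour 3, against 6.41 in the nearest other tumour and 6.25 in the lowest. Cxcr3 was at 6.81 in tumour 5, against 6.49 in the nearest other tumour and 6.22 in the lowest.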

How the results depend on the processing

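The count of 26 members above background was 26 with the mean of all probe sets, with quantile normalization repeated and with arrays centred, 27 by limma without trend and robust prior (Cxcl9 added), 21 of 21 tested among genes above the median level (99.95% of which were called), and 24 to 27 when a tumour was left out. It depends on the background chosen: 54 at the median of the receptor probe sets, 34 at their 90th percentile and 9 at their 99th, against 90.9%, 68.1% and 41.9% of all genes. At the median the members' share is above that of all genes, in contrast to the 95th percentile. At the median, these changed sign: Ackr4 0.51, Ccl1 1.58, Ccl12 0.41, Ccl17 1.31, Ccl22 1.17, Ccl24 1.70, Ccl26 1.02, Ccr1 0.89, Ccr10 1.88, Ccr2 1.49, Ccr3 0.20, Ccr4 0.50, Ccr6 0.81, Ccr8 0.95, Ccr9 0.60, Cxcl1 1.58, Cxcl11 1.36, Cxcl15 0.66, Cxcl2 1.61, Cxcl5 1.23, Cxcr6 1.03 and Xcl1 1.40. At the 90th percentile they were Ccl1 0.069, Ccl24 0.19, Ccr10 0.37, Cxcl1 0.073 and Cxcl2 0.10, and at the 99th Ackr2 -0.69, Ccl20 -0.72, Ccl28 -0.65, Ccl4 -0.53, Ccl5 -0.15, Ccl6 -0.11, Ccr7 -0.20, Cx3cl1 -0.15, Cxcl17 -0.68, Cxcr1 -0.87, Cxcr2 -0.64, Cxcr3 -0.17, Cxcr5 -0.96 and Xcr1 -0.96. Ackr1 (0.28), Ackr3 (0.052), Ccl2 (0.45), Ccl8 (0.13), Ccl9 (0.20) and Cxcl12 (0.14) kept their sign at the 99th percentile but were no longer called (limma adjusted p from 0.0645 to 0.771). The cause of these changes is the level set as background. The 2 relations past the threshold became 0 to 3 when a tumour was left out. The 13 variable members became 14 with arrays centred and 12 to 14 without a tumour, and the 8 highest in tumour 3 became 9 and 8 to 10. Of the 15 genes most like Ccl8, Ccl6 or Ccl5, 11 stayed with quantile normalization repeated, 9 with arrays centred and 6 to 11 without a tumour. The alternatives for the last 2 results were chosen after seeing the data. No paired analysis was possible because all tumours form 1 group. Near background, differences between tumours are compressed, so small SDs of uncalled genes say little.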

Other observations

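For the 3 called members with the largest SD, the genes with the most similar levels over the 8 tumours were listed from the 12673 called genes outside the family. With so many genes and 8 tumours, high values of r arise by selection, and they are given with no p. Closest to Ccl8 were Cep164, Zfp800, Smoc2, H2-DMa, a gene of antigen loading on MHC class II, and Hsd17b12, with r from 0.95 to 0.98. Closest to Ccl6 were Isy1, Ttll5, Msr1, a scavenger receptor of macrophages, Mllt10 and Med8, with r from 0.96 to 0.97. Closest to Ccl5 were Tmem106a, Dnase1l1, Selplg, a selectin ligand of leukocytes, Tnfrsf1b, a receptor of TNF, and Tor1aip1, with r from 0.97 to 0.98.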
